A study of Mus musculus with 20 samples.

Results

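Livers of mice that had lived under gamma rays at a high dose-rate were compared with livers of mice kept at a low dose-rate for the same 401 days, which formed the second of 2 experiments in the series. The 6 arrays compared, of 20 in all, were those titled H2-1 to H2-3 and L2-1 to L2-3. Each held liver RNA from 1 male C57BL/6J mouse. The high dose-rate was 20 mGy per day (cumulative dose 8015 mGy) and the low dose-rate 0.05 mGy per day (cumulative dose 20 mGy), given to the whole body from a 137Cs source for 22 h per day from 8 weeks of age under specific-pathogen-free conditions, per the labels. The livers were taken directly at the end of exposure. Beside them stand 3 mice at a medium dose-rate (1 mGy per day, 401 mGy) and 1 array of RNA pooled from 6 unirradiated mice, whose single value has no spread. Both groups compared were irradiated, and the low dose-rate mice are not an unirradiated control. The first experiment of the series lasted 485 days, with 3 mice at 16.6 mGy per day (8030 mGy) and 3 at 0.042 mGy per day (20.6 mGy), and shares no array with the comparison at 401 days.

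Ionizing radiation breaks DNA and oxidizes cell components, and the best known transcriptional answer is that of p53, which switches on genes such as Cdkn1a, an inhibitor of cyclin-dependent kinases. The liver also makes cholesterol, fatty acids and bile acids and folds large amounts of secreted protein. Several control systems of these tasks recur below. SREBP factors switch on lipid synthesis genes, the unfolded protein response serves protein folding in the endoplasmic reticulum (ER), and interferons switch on antigen presentation and the immunity GTPases.

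Signal is the brightness of a probe set after the authors' MAS5 scaling, with the mean of each array, after trimming 2% at each end, at 500.0. Array medians were 81.7 to 87.5 in the low and 81.3 to 99.99 in the high dose-rate mice, and high dose-rate mouse 1 held the highest. Differences are given as log2(signal + 7.12), high minus low, with the standard error (SE) of a model over all 20 arrays, and understate changes of dim genes. Over all 45101 probe sets, with no filter on low signal, log2 values were correlated between arrays. The correlations were 0.937 to 0.941 within the low dose-rate group, 0.932 to 0.943 within the high and 0.925 to 0.942 between them. By this measure, which includes many dim probe sets, the groups did not stand apart as wholes. Low dose-rate mouse 3 lay farthest from the median of its own group, with a mean absolute log2 distance of 0.196 against 0.127 and 0.162. On the first principal component of the 10 arrays of the experiment (24.4% of variance) it lay at 7.55, among the high dose-rate mice at 27.1, -6.49 and 8.40, and away from the other low dose-rate mice at -19.3 and -34.2. Results are therefore given with and without it where it matters. It was picked out from these same values, so results without it are not independent support. The hepatocyte marker Alb, the gene of serum albumin, had signals of 71569, 74941 and 74509.5 in the low and 73332, 64314 and 60506 in the high dose-rate mice, and 0 of 12 hepatocyte markers lay below the array median on all 6 arrays. In whole liver, fewer cells of a type and less RNA per cell cannot be told apart.

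No gene passed an adjusted p of 0.05 between the high and the low dose-rate at 401 days (limma, 11216 genes, Benjamini-Hochberg adjustment). The smallest adjusted p was 0.0705, and 6 genes lay under 0.1, 2 of them higher and 4 lower at the high dose-rate. At an unadjusted p under 0.05 there were 952 genes, 8.49% of those tested, with 484 higher (4.32%) and 468 lower (4.17%). With each array centred on its median the split was 283 higher and 477 lower. The 3 high dose-rate mice all lay above the 3 low dose-rate mice in 842 genes (7.51%) and all below them in 874 (7.79%). Leaving out low dose-rate mouse 3 brought the count past the adjusted threshold from 0 to 37 genes, 13 higher (0.116% of genes) and 24 lower (0.214%), 0.33% in all, and the count at an unadjusted p under 0.05 to 1283 (11.4%), with 6.46% higher and 4.98% lower. Without high dose-rate mouse 2 it was 2 genes, and without any other of the 6 mice 0. The unadjusted count was 539 without low dose-rate mouse 2, at the other end. Since no gene passed, the genes below are described by their values and are not called changed.

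Pde4b, a phosphodiesterase that breaks down cyclic AMP, and Stap1, an adaptor protein of immune cell signalling, were the higher genes under an adjusted p of 0.1. Pde4b had signals of 347, 211 and 362 in the low and 1157, 670.0 and 1047 in the high dose-rate mice, a log2 difference of 1.62 ± 0.28 (SE; 3 mice a group, adjusted p 0.0705). The unirradiated pool read 318, near the low dose-rate mice, and the medium dose-rate mice read 883, 767 and 659. Of 5 other probe sets of Pde4b, 2 had the opposite sign. Stap1 had signals of 42.1, 9.43 and 29.7 in the low and 278, 115 and 266 in the high dose-rate mice, a log2 difference of 2.77 ± 0.48 (adjusted p 0.0705). All of its low dose-rate values lay below the array medians, so this difference starts from a dim signal, and the pool, at 98.2, lay above all of them. At 485 days the differences were 0.33 ± 0.28 for Pde4b and 0.25 ± 0.48 for Stap1, with unadjusted p of 0.251 and 0.615.

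The lower genes under an adjusted p of 0.1 were Herpud1, Banp, Zbtb16 and Tppp. Herpud1, which helps remove misfolded proteins from the ER, had signals of 24051, 28234 and 19408 in the low and 12834, 14636 and 11607 in the high dose-rate mice, a log2 difference of -0.86 ± 0.16 (adjusted p 0.0705). Its pool read 27251, within the low dose-rate range, and the medium dose-rate mice read 14408, 12305 and 14529.6. Zbtb16, a zinc finger transcription factor that glucocorticoids induce, read 857, 859 and 516 in the low and 193, 216 and 164 in the high dose-rate mice, a log2 difference of -1.89 ± 0.35 (adjusted p 0.0705), with 1060.5 in the pool and 211, 206 and 307 in the medium dose-rate mice. Neither gene had a high dose-rate mouse inside the low dose-rate range. Banp, a nuclear DNA-binding protein, read 511, 631 and 445 against 238, 132 and 109 (log2 difference -1.75 ± 0.32, adjusted p 0.0705). Tppp, a tubulin-binding protein, read 272, 334 and 341 against 136, 92.4 and 137 (log2 difference -1.34 ± 0.25, adjusted p 0.0743). The pool read 289 for Banp and 248 for Tppp, in both below every low and above every high dose-rate mouse. The medium dose-rate mice read 340, 182 and 326 for Banp and 166, 116 and 192 for Tppp. At 485 days the differences were -0.93 ± 0.32 for Banp, -0.51 ± 0.35 for Zbtb16, -0.30 ± 0.25 for Tppp and -0.04 ± 0.16 for Herpud1, and only that of Banp had an unadjusted p under 0.05 (0.00914).

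**Figure D1:**
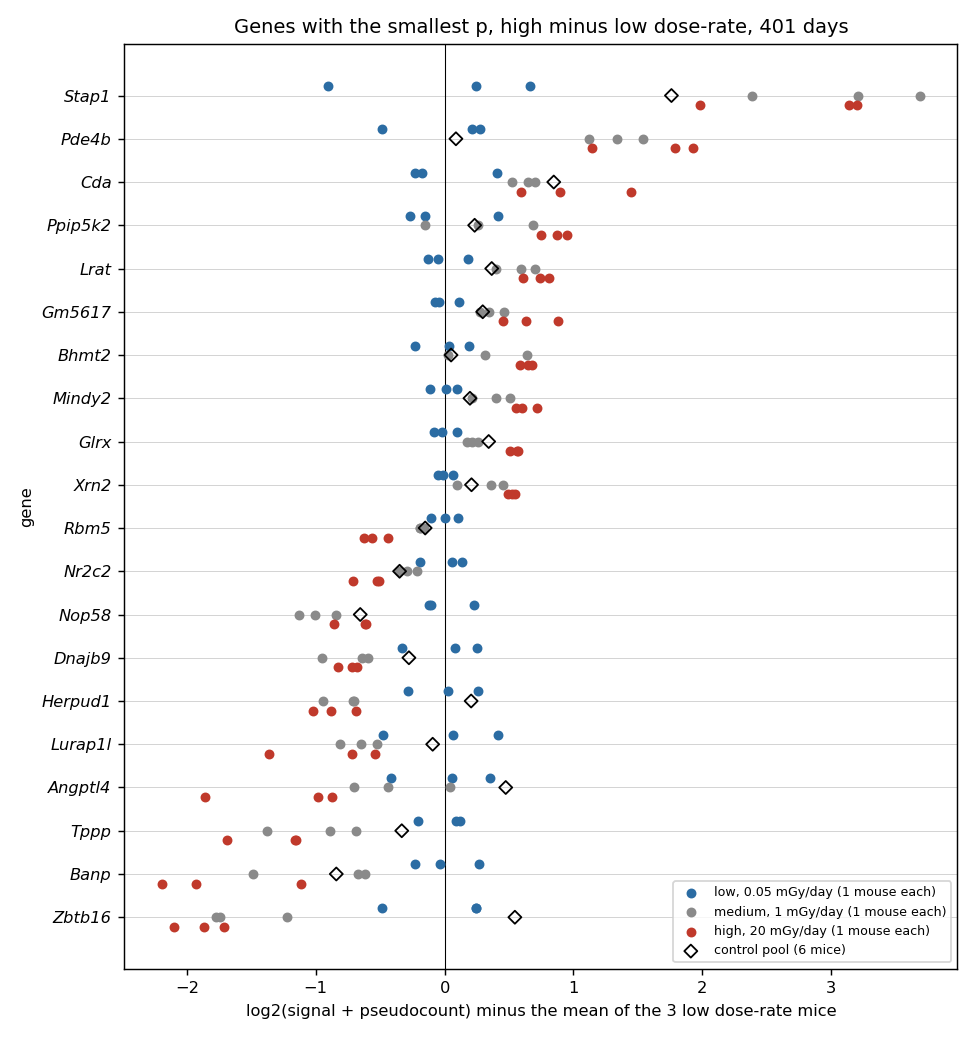
The 10 higher and 10 lower genes with the smallest p among those whose groups did not overlap, ordered by difference. The x axis gives the log2 value of each mouse (points; 3 per dose-rate) and of the control pool (diamond) minus the mean of the low dose-rate mice. In all 20 the high dose-rate mice lie apart from the low, which is how the genes were chosen; the means of the high dose-rate mice lie farthest to the right in Stap1 and Pde4b and farthest to the left in Zbtb16 and Banp.

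The other higher genes of this rank had adjusted p from 0.117 to 0.195. Cda, the cytidine deaminase of pyrimidine salvage, read 430.2, 415 and 647 in the low and 1343, 739.8 and 912 in the high dose-rate mice (log2 difference 0.98 ± 0.20), with 882 in the pool, which lay among the high dose-rate mice. Glrx, a glutaredoxin that reverses protein glutathionylation, read 1161, 1107 and 1259 against 1748, 1740.1 and 1674 (0.55 ± 0.11). Bhmt2, a methyltransferase that makes methionine, read 3401, 2827 and 3791 against 5321, 4973 and 5189 (0.64 ± 0.13). The high dose-rate values of Glrx and Bhmt2 were close together. Lrat, which makes the retinyl esters that stellate cells store, read 711, 880.5 and 750.4 against 1305, 1189 and 1370.4 (0.72 ± 0.15), and its difference at 485 days had the opposite sign (-0.30 ± 0.15). The predicted gene Gm5617 (0.66 ± 0.13), the nuclear exoribonuclease Xrn2 (0.52 ± 0.12), the inositol pyrophosphate kinase Ppip5k2 (0.86 ± 0.19) and the deubiquitinase Mindy2 (0.62 ± 0.14) completed the list, with the log2 differences in parentheses. Xrn2 and Mindy2 were higher at 485 days too, by 0.36 ± 0.12 (unadjusted p 0.0065) and 0.38 ± 0.14 (0.0149).

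The other lower genes had adjusted p from 0.117 to 0.202. Angptl4, a secreted inhibitor of lipoprotein lipase, read 3305, 5628 and 4593 in the low and 1211, 2398 and 2229 in the high dose-rate mice (log2 difference -1.24 ± 0.28), against 6124 in the pool, and was lower at 485 days by a log2 difference of -0.72 ± 0.28 (unadjusted p 0.0186). Lurap1l read 2606, 3318 and 1781 against 961, 1712 and 1507 (-0.87 ± 0.20), with -0.57 ± 0.20 at 485 days (unadjusted p 0.0112), and 1 of its 2 other probe sets had the opposite sign. Rbm5, a splicing regulator (-0.54 ± 0.11), Nr2c2, an orphan nuclear receptor (-0.58 ± 0.12), and Nop58, a core protein of small nucleolar ribonucleoproteins (-0.70 ± 0.16), were also in the list, and the ER chaperone Dnajb9 is described with its pathway below. Of the other probe sets, 1 of 4 for Rbm5 and 2 of 5 for Nr2c2 had the opposite sign. Of the 20 genes of both directions, 15 had the same sign of difference at 485 days, 5 of them with an unadjusted p under 0.05, beside 54.4% of all genes with the same sign. Of the 20, 10 passed the adjusted threshold without low dose-rate mouse 3: Pde4b, Stap1, Cda and Bhmt2 among the higher, and Herpud1, Banp, Zbtb16, Dnajb9, Rbm5 and Lurap1l among the lower.

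Genes in which each high dose-rate mouse lay at least 1.5-fold from every low dose-rate mouse numbered 19 higher (0.169% of genes) and 9 lower (0.0802%). The widest gaps on the higher side belonged to Stap1, Pde4b, Ccdc151, Pnpla3 and Smo. Ccdc151, a protein of ciliary dynein arms, read 69.7, 43.2 and 84.8 against 158, 183 and 233 (log2 difference 1.47 ± 0.52, unadjusted p 0.0117). Smo, the transducer of hedgehog signals, read 75.7, 75.2 and 76.5 against 189, 134 and 176, but both of its 2 other probe sets had the opposite sign and its unadjusted p was 0.0862. When the probe set with the highest mean was taken instead, the difference of Smo was -0.15. On the lower side the widest gaps were those of Obp2a, Banp, Zbtb16, Tppp and Cabin1. Cabin1, an inhibitor of calcineurin, read 178, 108 and 200.2 against 55.2, 41.4 and 44.8 (log2 difference -1.61 ± 0.46). All of its high dose-rate values lay below the array medians, and 1 of its 2 other probe sets had the opposite sign. At 485 days Cabin1 differed by 0.60 ± 0.46. Obp2a, an odorant-binding protein with higher expression in male than in female mouse liver, read 603, 4113 and 489.8 against 87.0, 269.8 and 65.7 (-3.12 ± 0.92), and its low dose-rate values spread widely.

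Genes of protein folding in the ER were lower at the high dose-rate as a group by count, without any passing the adjusted threshold. Of 28 genes of the ER stress and amino acid response, 25 had a lower mean at the high dose-rate, where 49.4% of all genes did. At an unadjusted p under 0.05, 8 were lower and 0 higher, where 4.17% of all genes were lower. The median log2 difference of the list was -0.25, where that of all genes was 0.00. Dnajb9, a cochaperone of the ER chaperone BiP, read 9133, 10303 and 6895 in the low and 5257, 4878 and 5399.8 in the high dose-rate mice (log2 difference -0.74 ± 0.15, adjusted p 0.117), with 7145 in the pool. The groups did not overlap in 4 of the 28 genes, namely Herpud1, Dnajb9, Ddit3 and Atf3, where 7.79% of all genes lay wholly lower. Ddit3, the stress transcription factor CHOP, read 585, 710.1 and 449.6 against 441, 279.7 and 350.4 (-0.69 ± 0.22, unadjusted p 0.00632), and 1 other probe set had the opposite sign.

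The other members at an unadjusted p under 0.05 were Ern1, Eif2ak3, Xbp1, Chac1 and Hyou1, which span the sensors, a transcription factor and the targets of the unfolded protein response. Ern1, the ER sensor IRE1, read 3173, 4540.3 and 2481 in the low and 2039.8, 2669 and 2416 in the high dose-rate mice (log2 difference -0.48 ± 0.18). Xbp1, whose messenger RNA IRE1 splices, read 16626, 17989 and 10653 against 11217, 12515 and 9502 (-0.42 ± 0.17). In both, low dose-rate mouse 3 lay inside the range of the high dose-rate mice. Over the list, its median deviation from the mean of the low dose-rate mice was -0.33, beside 0.14 and 0.25 in the other low and -0.38, -0.20 and -0.16 in the high dose-rate mice. Without it the list's median difference was -0.47 and 13 genes had an unadjusted p under 0.05. Without high dose-rate mouse 1 the median was -0.15, and without low dose-rate mouse 1 or 2 it was -0.17 with 4 such genes each. There were 5 without high dose-rate mouse 3. At 485 days the median was -0.03 and 1 of the 28 genes had an unadjusted p under 0.05 in the lower direction, none in the higher (0 genes). Dnajb9 differed there by 0.05 ± 0.15 and Xbp1 by 0.09 ± 0.17. The difference between the 2 contrasts had an unadjusted p of 0.00144 for Herpud1 and 0.00157 for Dnajb9, and neither passed adjustment over all genes (0.587 and 0.587).

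The promoters of Herpud1 and Dnajb9 are shown because these led the ER genes in rank. They are RefSeq windows of 300 bases from build GRCm38.p6, running from 250 bases before to 50 after the gene's start on the gene's own strand. Capitals mark CCAAT, read as ATTGG where it lies on the other strand. Herpud1 lies at chr8:94386179-94386478, plus strand, and Dnajb9 at chr12:44210019-44210318, minus strand.
Herpud1: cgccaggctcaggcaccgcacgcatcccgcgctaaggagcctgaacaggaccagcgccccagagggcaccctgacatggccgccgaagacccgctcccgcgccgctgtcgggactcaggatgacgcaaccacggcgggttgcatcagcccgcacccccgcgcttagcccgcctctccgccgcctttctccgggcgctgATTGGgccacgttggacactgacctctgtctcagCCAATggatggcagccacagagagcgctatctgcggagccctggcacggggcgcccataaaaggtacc
Dnajb9: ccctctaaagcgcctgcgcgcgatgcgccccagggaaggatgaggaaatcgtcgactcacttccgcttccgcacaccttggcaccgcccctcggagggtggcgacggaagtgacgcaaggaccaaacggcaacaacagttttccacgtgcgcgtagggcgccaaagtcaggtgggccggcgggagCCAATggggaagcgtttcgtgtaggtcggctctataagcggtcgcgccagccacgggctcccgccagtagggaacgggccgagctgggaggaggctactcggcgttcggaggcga
The Herpud1 window held 2 CCAAT matches and the Dnajb9 window 1, and 37.4% of all 32851 windows of this length held at least 1. The E-box CACGTG occurred 1 time in Dnajb9 and 0 times in Herpud1, with a share of 7.15% over all windows, and the GC box GGGCGG occurred 1 time in Dnajb9 and 0 times in Herpud1, with a share of 35.7%. The TATA box TATAAA (13.6% of windows), the interferon element (3.44%) and the STAT element TTCNNNGAA (8.3%) were in neither. Matches of the motifs, searched on both strands with overlaps allowed, are descriptions of these letters only.

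Heat shock chaperones, which refold proteins in the cytosol, showed the same direction by count. Of 20 genes, 18 were lower on average, where 49.4% of all genes were. At an unadjusted p under 0.05, 6 were lower and 0 higher, where 4.17% of all genes were lower. The groups did not overlap in 5, all lower, where 7.79% of all genes lay wholly lower. Hspa1b, an inducible Hsp70, read 4393, 7478 and 1697 in the low and 720.2, 1306 and 1128 in the high dose-rate mice (log2 difference -1.90 ± 0.57, unadjusted p 0.00348), with 1945 in the pool and 5164, 1249.7 and 1415 in the medium dose-rate mice. Its near-identical copy Hspa1a read 292, 604 and 84.4 against 64.3, 83.9 and 77.2 (-1.64 ± 0.76), and probe sets may not separate the pair. Both varied several-fold among the low dose-rate mice. The cochaperones Dnajb4 (-0.61 ± 0.16) and Dnajb1 (-0.85 ± 0.27) had unadjusted p of 0.00153 and 0.00495. Dnajb4 read 3432, 4008 and 2555 against 1756, 2271 and 2484, so the highest of the high dose-rate mice lay just below the lowest low dose-rate mouse. At 485 days, Hspa1b was lower by a similar log2 difference (-1.84 ± 0.57, unadjusted p 0.00444) and Dnajb1 too (-0.62 ± 0.27, 0.0316). The list's median was -0.20 at 401 and -0.15 at 485 days. It was -0.39 without low dose-rate mouse 3, with 10 genes at an unadjusted p under 0.05, and -0.08 without low dose-rate mouse 2, with 3. The count was 3 without high dose-rate mouse 1 and 4 without high dose-rate mouse 3.

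**Figure D2:**
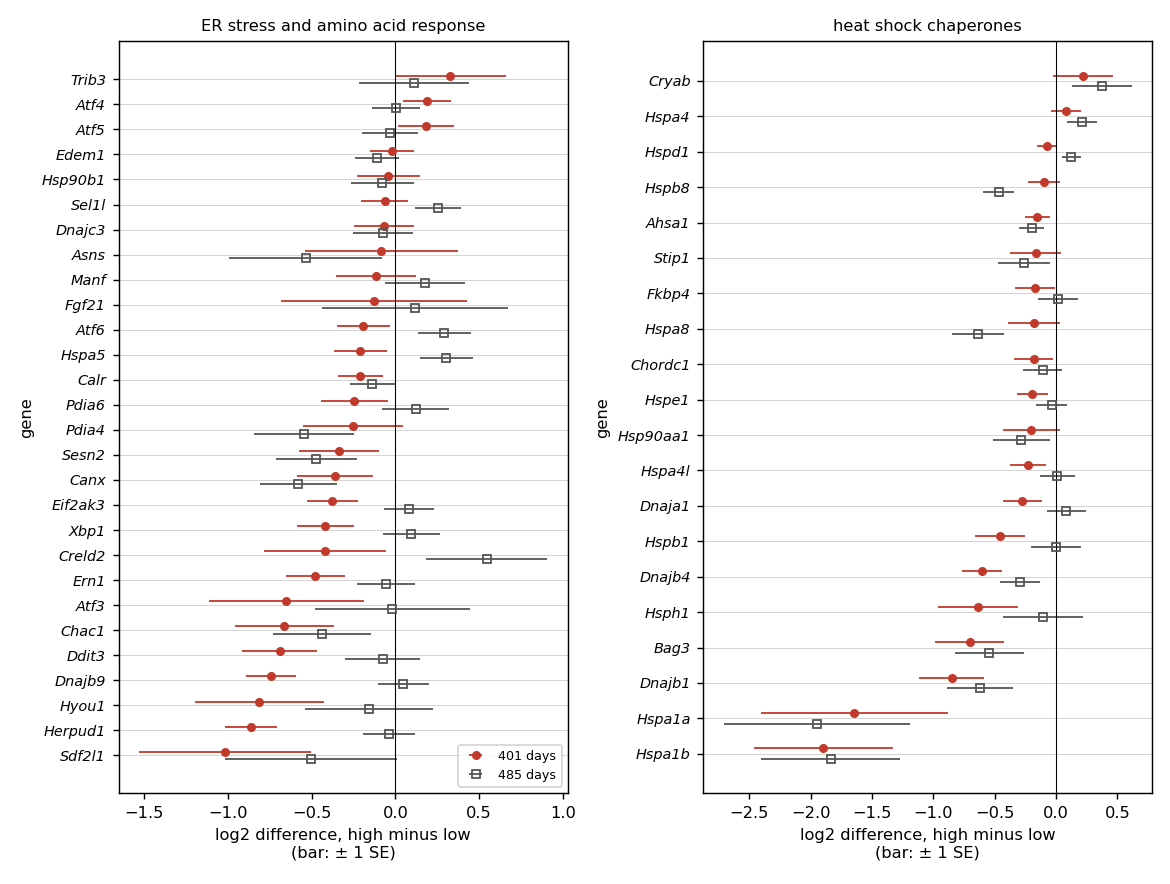
Log2 differences, high minus low dose-rate, for the 28 ER stress genes (left) and the 20 heat shock chaperones (right), at 401 days (filled circles) and 485 days (open squares). Each bar is 1 SE from the model over all 20 arrays. At 401 days most circles lie left of 0 in both lists; at 485 days the squares of the ER list lie around 0, with a median of -0.03.

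Genes of cholesterol synthesis were higher at the high dose-rate as a group by count. Of 20 genes that SREBP2 controls or that make cholesterol, 18 were higher on average, where 50.6% of all genes were. At an unadjusted p under 0.05, 11 were higher and 0 lower, where 4.32% of all genes were higher. The groups did not overlap in 10 of the 20, all higher, where 7.51% of all genes lay wholly higher. The list's median log2 difference was 0.36. Mvd, the mevalonate diphosphate decarboxylase, read 470.3, 322 and 380.2 in the low and 908, 766 and 738 in the high dose-rate mice (log2 difference 1.04 ± 0.25, unadjusted p 0.000556, adjusted p 0.231), with 280.4 in the pool. Msmo1, a sterol methyl oxidase, read 2617, 1621 and 2491 against 5398, 4059 and 5024 (1.12 ± 0.31, unadjusted p 0.00178), with 2508 in the pool. Fdft1, squalene synthase, read 2500.4, 1672 and 2553 against 4332, 3070.0 and 3941 (0.76 ± 0.22, unadjusted p 0.00282). For these 3 genes the pool lay below every high dose-rate mouse. The medium dose-rate mice read 717, 582 and 515 for Mvd, 5404, 4198 and 3944 for Msmo1 and 3847, 3531 and 3068 for Fdft1.

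Further members, chosen after their values were seen, cover the rest of the route. Hmgcs1 and Fdps act before squalene, and their log2 differences were 0.38 ± 0.18 and 0.62 ± 0.25. Sqle, squalene epoxidase and a slow step of the pathway, read 777, 223 and 291 in the low and 1594, 778 and 888 in the high dose-rate mice (1.46 ± 0.53, unadjusted p 0.0126), and low dose-rate mouse 1 nearly reached the lowest high dose-rate mouse. Dhcr7, which makes cholesterol from its last precursor, read 1579.7, 1136 and 1820.2 against 3466, 2166 and 2097 (0.75 ± 0.23, unadjusted p 0.00395). The regulator Srebf2 itself, SREBP2, had a log2 difference that changed sign when single mice were left out, 0.11 ± 0.30. Several of these genes were higher at 485 days, with log2 differences of 1.72 ± 0.53 for Sqle (unadjusted p 0.00437), 0.62 ± 0.18 for Hmgcs1 (0.00319), 0.81 ± 0.29 for Idi1 (0.0119) and 0.55 ± 0.22 for Fdft1 (0.022), and 8 of the 20 had an unadjusted p under 0.05 there, all higher. The list's median was 0.26 at 485 days. In single mice at 401 days it was 0.18, -0.29 and 0.14 from the mean of the low dose-rate mice in that group, and 0.59, 0.27 and 0.43 in the high, so low dose-rate mouse 2 was the lowest. Without that mouse 4 genes had an unadjusted p under 0.05 and the median was 0.24, and without high dose-rate mouse 1 the values were 4 genes and 0.29.

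The Mvd promoter is shown because Mvd led the list. It lies at chr8:122443373-122443672, minus strand, with the same source, build and marking as above.
Mvd: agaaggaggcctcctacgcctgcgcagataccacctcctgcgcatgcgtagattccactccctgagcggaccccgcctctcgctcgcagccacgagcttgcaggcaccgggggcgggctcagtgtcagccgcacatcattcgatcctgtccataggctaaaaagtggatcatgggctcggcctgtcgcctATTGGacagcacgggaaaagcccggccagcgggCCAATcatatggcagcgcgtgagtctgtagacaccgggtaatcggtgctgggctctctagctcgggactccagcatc
The window held 2 CCAAT matches and 1 GC box GGGCGG, and 0 matches of the E-box CACGTG, the TATA box TATAAA, the interferon element or the STAT element TTCNNNGAA.

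Fatty acid synthesis genes were also mostly higher. Of 26 genes, 23 were higher on average, where 50.6% of all genes were. At an unadjusted p under 0.05, 6 were higher and 0 lower, where 4.32% of all genes were higher. The groups did not overlap in 6, all higher, where 7.51% of all genes lay wholly higher. Srebf1, the SREBP of fatty acid synthesis, read 12252, 6006 and 10330.3 in the low and 19088, 16732 and 18596 in the high dose-rate mice (log2 difference 0.99 ± 0.26, unadjusted p 0.0013), with 8608 in the pool and 12441, 18954 and 10472 in the medium dose-rate mice. Scd2, a stearoyl-CoA desaturase, read 356, 219 and 446 against 820.3, 509 and 843 (1.10 ± 0.31, unadjusted p 0.00249). Gpam, which starts triglyceride synthesis, read 11867, 9571 and 14927 against 25660.4, 20642 and 18639 (0.85 ± 0.27, unadjusted p 0.00517). In all 3 genes the lowest of the high dose-rate mice lay above the highest low dose-rate mouse. Pnpla3, a lipid droplet protein and SREBP1c target, read 229.7, 64.0 and 251 against 726, 462 and 430.2 (1.70 ± 0.63). Fasn, fatty acid synthase, read 17259.6, 10739.5 and 22934 against 27319, 27555 and 22643 (0.67 ± 0.38, unadjusted p 0.0919), and its groups overlapped. The list's median was 0.33 at 401 days and 0.07 at 485 days, where 0 of 26 genes had an unadjusted p under 0.05, and Srebf1 differed by 0.08 ± 0.26. Low dose-rate mouse 2 lay at -0.39 and mouse 3 at 0.37 on the list, around the high dose-rate mice at 0.53, 0.20 and 0.21. Without mouse 2 the median was 0.13 and 4 genes had an unadjusted p under 0.05, without mouse 3 the values were 0.57 and 15, and without high dose-rate mouse 1 they were 0.25 and 3. Without high dose-rate mouse 2 there were 9 such genes.

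**Figure D3:**
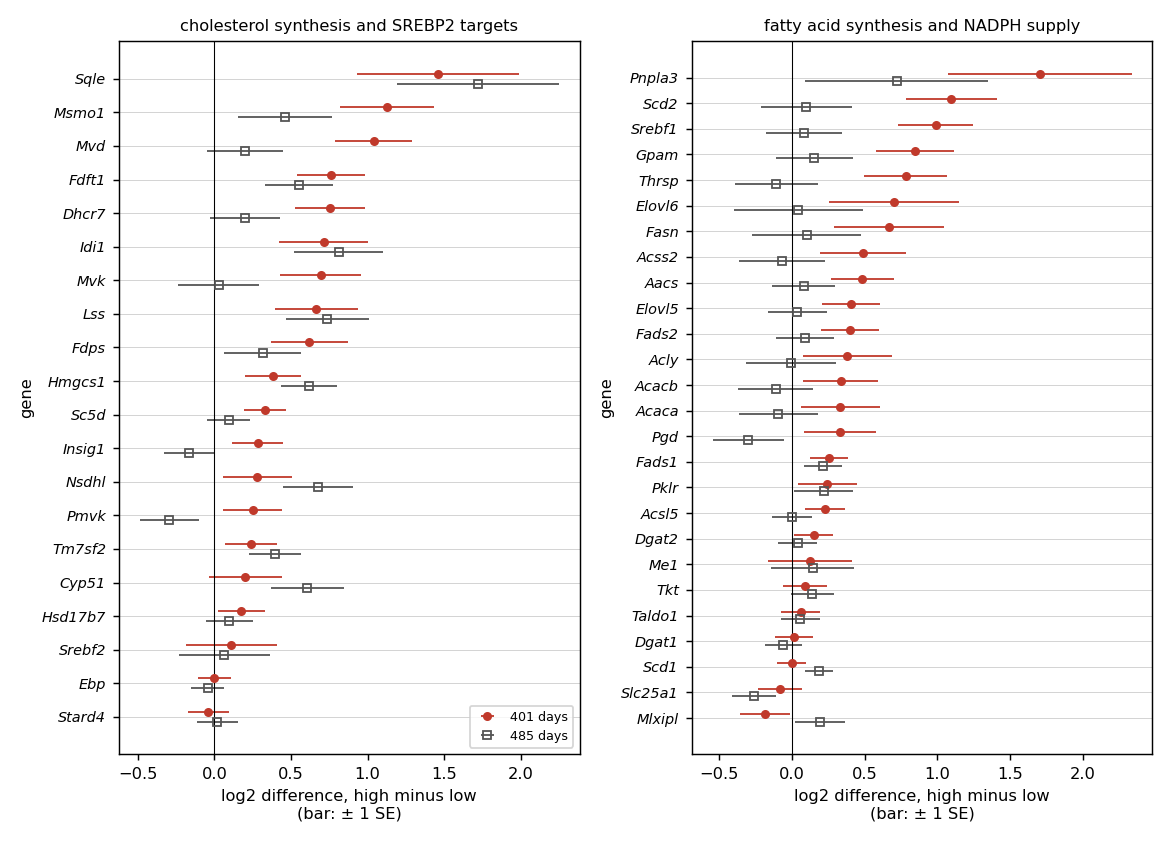
Log2 differences, high minus low dose-rate, for 20 genes of cholesterol synthesis (left) and 26 of fatty acid synthesis and its NADPH supply (right), at 401 days (filled circles) and 485 days (open squares), with bars of 1 SE from the model over all 20 arrays. In the left panel both times lie mostly right of 0, with medians of 0.36 and 0.26; in the right panel the squares gather near 0, with a median of 0.07 against 0.33.

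Immunity GTPases, proteins that interferon gamma induces and that attack compartments of intracellular pathogens, were higher in 9 of 9 measured genes, where 50.6% of all genes were. At an unadjusted p under 0.05, 5 were higher, where 4.32% of all genes were. The groups did not overlap in 6, all higher, where 7.51% of all genes lay wholly higher. Gbp2 read 155, 228 and 179.5 in the low and 363, 386 and 353 in the high dose-rate mice (log2 difference 0.96 ± 0.29, unadjusted p 0.00395), with 306 in the pool. Gbp6 read 210.3, 391 and 254 against 499, 446 and 647 (0.91 ± 0.26) and Igtp read 1584, 1649 and 1423 against 2459, 1994 and 2654 (0.60 ± 0.19). Irgm1 and Irgm2 had differences of 0.53 ± 0.20 and 0.51 ± 0.19, and at 485 days of 0.48 ± 0.20 and 0.57 ± 0.19 (unadjusted p 0.0248 and 0.00841). The list's median was 0.52 at 401 and 0.40 at 485 days, and 0.35 without low dose-rate mouse 3, when 8 genes were higher and 1 lower. Of 26 genes of the type I interferon response, 21 were higher on average and 10 lay wholly higher, where 50.6% and 7.51% of all genes did. But only 2 had an unadjusted p under 0.05, both higher, where 4.32% of all genes were. These were Oasl1, which read 329.6, 331 and 318 against 794, 546 and 629 (0.98 ± 0.25, unadjusted p 0.000917), and Ifit1 (1.01 ± 0.43). The kinase Eif2ak2, which senses double-stranded RNA, came next (0.52 ± 0.25, unadjusted p 0.0517). The median of that list was 0.30 at 401 and 0.34 at 485 days.

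MHC class II genes, which present antigen to helper T cells, had mostly higher values at the high dose-rate at 401 days and lower values at 485 days. At 401 days 7 of 8 genes were higher on average, where 50.6% of all genes were, with a median of 0.62. At an unadjusted p under 0.05, 5 were higher and 0 lower, where 4.32% of all genes were higher. H2-Eb1, a class II beta chain, read 1088, 1097 and 1185 in the low and 2008, 1931 and 1614 in the high dose-rate mice (log2 difference 0.71 ± 0.18, unadjusted p 0.00108), with 1292 in the pool and 2114, 1757 and 1973 in the medium dose-rate mice. H2-Ab1 read 413, 537 and 432 against 765, 856 and 709.5 (0.75 ± 0.24, unadjusted p 0.00506). H2-DMa, a chain of the peptide exchange factor, read 290.2, 274 and 209 against 483, 372 and 407 (0.70 ± 0.26). All 3 genes had groups that did not overlap. Cd74, the invariant chain, read 1618, 2193 and 1915 against 3250.1, 3042 and 2173 (0.55 ± 0.25), with 1 high dose-rate mouse inside the low dose-rate range. At 485 days the list's median was -0.36, and H2-Eb1 differed by -0.70 ± 0.18 (unadjusted p 0.00118), H2-Ab1 by -0.70 ± 0.24 and Cd74 by -0.81 ± 0.25. The test of the difference between the experiments gave H2-Eb1 a log2 value of 1.42 ± 0.26 (401 minus 485 days, unadjusted p 3.33e-05, adjusted p 0.187), so it did not pass over all genes. It passed, with H2-Ab1, when low dose-rate mouse 2 of the first experiment was left out. At 401 days the list had 2 genes at an unadjusted p under 0.05 without high dose-rate mouse 1, and 3 without high dose-rate mouse 2, low dose-rate mouse 1 or low dose-rate mouse 3.

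**Figure D4:**
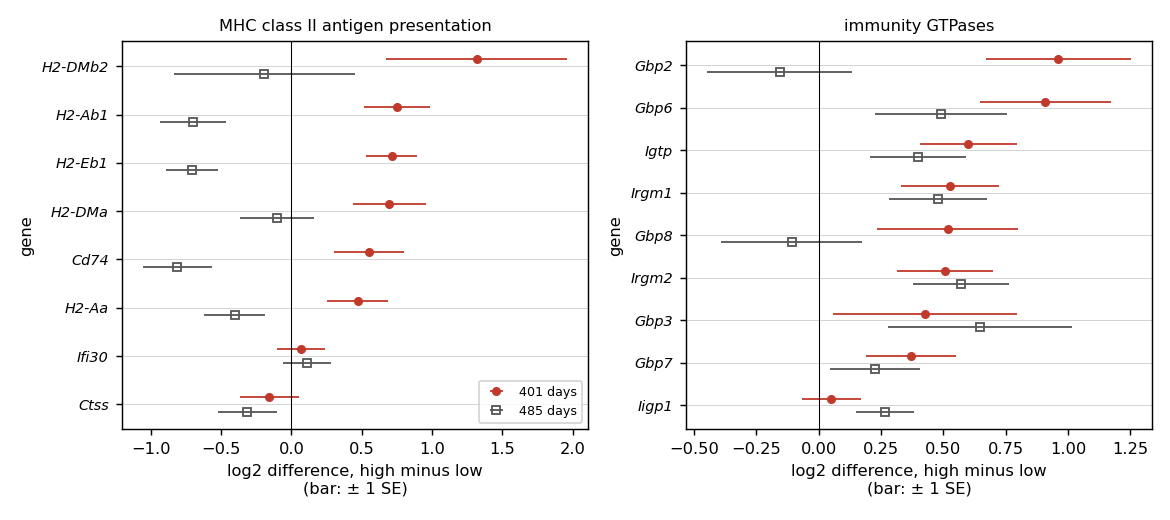
Log2 differences, high minus low dose-rate, for 8 MHC class II genes (left) and 9 immunity GTPases (right), at 401 days (filled circles) and 485 days (open squares), with bars of 1 SE from the model over all 20 arrays. Circles and squares of H2-Eb1, H2-Ab1, Cd74 and H2-Aa lie on opposite sides of 0, whereas those of Irgm1, Irgm2 and Igtp lie on the same side.

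Markers of immune and other cells were summed beside these lists, and their part in the results was not tested. The summed signal of 16 T and NK cell markers was 870 to 985 in the low and 1096 to 1249 in the high dose-rate mice, so it was higher in every high dose-rate mouse, though 6 of the 16 lay below the array median on all 6 arrays. In the medium dose-rate mice it was 1331, 987 and 840. All 6 T and NK markers kept by the signal filter had higher means, where 50.6% of all genes did, but 0 had an unadjusted p under 0.05. At 485 days 3 of them were higher and 3 lower. Sums of 16 Kupffer cell and macrophage markers overlapped (34043 to 39837 and 28526 to 41577), as did those of 11 B cell markers (2899 to 5144 and 3006 to 5765) and 9 neutrophil markers (745 to 1214 and 960.4 to 1159). The sum of 5 erythroid markers was lower in every high dose-rate mouse (4184 to 4766 and 3186 to 3997), led by Alas2, the heme synthesis enzyme of red cell precursors (3581, 4374 and 3652 and 2635, 3489 and 2695), which made up most of that sum. The other 2 erythroid markers kept by the signal filter, Hbb-b2, a beta globin (0.18 ± 0.31), and Klf1, a transcription factor of red cell precursors (0.41 ± 0.28), had higher means and groups that overlapped, and the median of the 3 was 0.18. The difference of Hbb-b2 and that median were both -0.31 without high dose-rate mouse 1. No marker read 0 on these arrays (0 in each list), and 8 of 11 skeletal muscle and 7 of 12 pancreatic acinar markers lay below the array median on all 6 arrays. Sums of endothelial, cholangiocyte, acinar, muscle and fat cell markers overlapped. Car3 made up most of the fat cell sum (60670 to 68064 on the 6 arrays) and Cela1 most of the acinar sum (1015 to 2164). These 2 sums therefore say little about the other markers of their lists. Stellate cell marker sums were 18363 to 21806 and 21233 to 24167. Of 12 stellate markers 9 were higher and 3 lower, with a median of 0.16 (0.04 at 485 days, with 7 higher and 5 lower). At an unadjusted p under 0.05, 2 were higher and 0 lower, where 4.32% and 4.17% of all genes were. These were Lrat, described above, and Pdgfrb, the receptor for platelet-derived growth factor B. Without high dose-rate mouse 2 or low dose-rate mouse 1 the counts were 2 and 1. Pdgfrb read 361, 365 and 471 against 717, 796 and 779 (0.94 ± 0.27, unadjusted p 0.00293). Of 6 B cell markers kept by the filter 3 were higher and 3 lower, with a median of 0.06 (-0.18 without low dose-rate mouse 3). Among them Cd79b of the B cell receptor differed by 1.00 ± 0.38, with groups that overlapped. Of 31 extracellular matrix genes, 27 were higher on average (24 with each array centred on its median), where 50.6% of all genes were. The median was 0.20 (0.15 with centred arrays), but 0 of the 31 genes had an unadjusted p under 0.05. The smallest p among them was that of Mmp14, a membrane-bound collagenase (0.33 ± 0.18, unadjusted p 0.0743), followed by the basement membrane and matrix proteins Nid1 (0.30 ± 0.21) and Sparc (0.27 ± 0.19).

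Genes that differ between male and female mouse liver lay in opposite directions by count. Of 19 male-biased genes 18 were lower at the high dose-rate, 4 with an unadjusted p under 0.05. Of 16 female-biased genes 15 were higher, 4 with an unadjusted p under 0.05. Over all genes 49.4% were lower and 50.6% higher, with 4.17% and 4.32% at that level. The medians of the 2 lists were -0.51 and 0.73. The spread within a dose-rate was wide. On the female-biased list the low dose-rate mice lay at -0.05, -0.54 and 0.78 and the high at 1.03, 0.15 and 0.87, so low dose-rate mouse 3 lay with the high group and high dose-rate mouse 2 near the low. On the male-biased list the same mice lay at 0.13, 0.35 and -0.48, and at -0.67, -0.04 and -0.93. The unirradiated pool lay at 0.85 on the female-biased list, above every low dose-rate mouse and inside the high dose-rate range. On the male-biased list the pool lay at -0.22, inside the ranges of both groups. Cyp17a1, a steroid hydroxylase, read 189.7, 23.5 and 303 in the low and 723, 296 and 769 in the high dose-rate mice (log2 difference 2.17 ± 0.64, unadjusted p 0.00303), and its groups overlapped. Among male-biased genes, Obp2a led, followed by Cspg5, a membrane proteoglycan, with 247, 275 and 189.9 against 104, 134 and 80.3 (-1.12 ± 0.37), and Cyp2d9, a male-specific steroid hydroxylase, with 30978, 41182 and 27759 against 21753, 28542 and 19962 (-0.50 ± 0.20). Slc16a5, a monocarboxylate transporter (0.99 ± 0.39), and Atp6v0d2, a proton pump subunit (0.87 ± 0.36), followed among the female-biased. Egfr, the epidermal growth factor receptor and a gene of the male-biased list, read 7222, 10639 and 3210.4 against 1094, 5409 and 2032 (-1.45 ± 0.60). Without low dose-rate mouse 3 the medians were -0.84 and 1.24, and 12 male-biased and 10 female-biased genes had an unadjusted p under 0.05. Without high dose-rate mouse 2 the medians were -0.84 and 1.03, with 9 genes each. Without low dose-rate mouse 2 they were -0.34 and 0.40, with 2 and 1 genes, and the counts were 2 and 1 without high dose-rate mouse 1 and 2 and 2 without high dose-rate mouse 3. At 485 days the medians were -0.41 and 0.38.

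**Figure D5:**
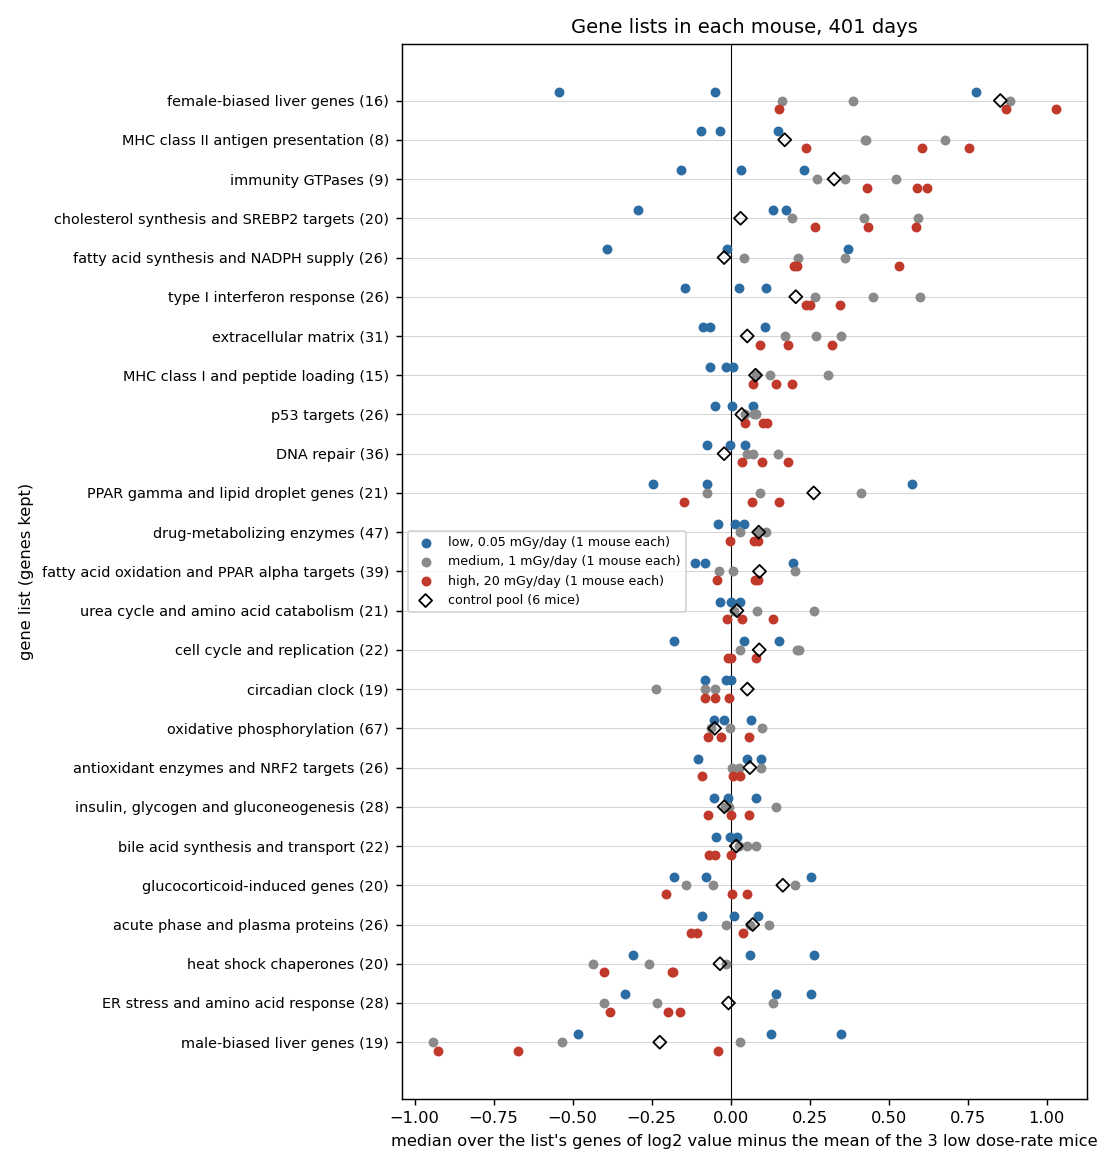
The median of each of the 25 pathway lists in every mouse of the 401-day experiment. The x axis gives the median, over the list's genes, of the log2 value minus the mean of the 3 low dose-rate mice; points are mice and diamonds the control pool. The female-biased and male-biased lists spread widely within a dose-rate. The high and low dose-rate mice do not overlap on the lists for, among others, cholesterol synthesis, immunity GTPases and MHC class II.

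Among 26 p53 targets 16 were higher on average and 10 lower, with a median of 0.08 (0.23 at 485 days). At an unadjusted p under 0.05, 3 were higher and 1 lower, where 4.32% and 4.17% of all genes were. The groups did not overlap in 6 genes, all higher, where 7.51% of all genes lay wholly higher and 7.79% wholly lower. Without low dose-rate mouse 3 the counts at an unadjusted p under 0.05 were 5 higher and 1 lower, and without high dose-rate mouse 1 they were 2 and 0. Cdkn1a read 149, 208 and 236 in the low and 591, 341 and 783 in the high dose-rate mice (log2 difference 1.44 ± 0.37, unadjusted p 0.000988, adjusted p 0.288). The unirradiated pool, at 440.2, lay above every low dose-rate mouse and inside the high dose-rate range, and the medium dose-rate mice read 411, 319 and 564. Bbc3, the proapoptotic PUMA, read 227, 182 and 277 against 566, 349 and 286 (0.75 ± 0.25), and Phlda3, an inhibitor of Akt, read 90.6, 119 and 238 against 304, 214 and 277 (0.90 ± 0.31), with low dose-rate mouse 3 inside the high dose-rate range. At 485 days these 3 genes differed by 0.35 ± 0.37, 0.47 ± 0.25 and 0.43 ± 0.31. Of 36 DNA repair genes 24 were higher and 12 lower. At an unadjusted p under 0.05, 2 were higher and 3 lower, where 4.32% and 4.17% of all genes were. The counts were 1 and 1 without low dose-rate mouse 2. The 5 genes included Xrcc5, the Ku80 subunit of end joining (0.50 ± 0.16), Mgmt, which removes alkyl groups from guanine (0.69 ± 0.23), and H2ax, the histone variant phosphorylated at breaks (-0.48 ± 0.18). Of 22 genes of the cell cycle and replication 1 had such a p, the repressor E2f8 (-1.21 ± 0.40), ahead of Cdca3 (0.55 ± 0.28) and the centromere histone Cenpa (-0.38 ± 0.22). Of 26 antioxidant and NRF2 genes 13 were higher and 13 lower. Gstp1, a glutathione transferase with a near-identical copy that probes may not separate, was lower (-0.44 ± 0.14, unadjusted p 0.00568), Nqo1, a quinone reductase, was higher (0.76 ± 0.34, 0.0358), and the peroxidase Gpx1 differed by -0.20 ± 0.10.

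Bile acid genes went in both directions, 8 of 22 higher and 14 lower, with a median of -0.04. At an unadjusted p under 0.05, 5 were higher and 3 lower, where 4.32% and 4.17% of all genes were. The 3 lower were exporters of the canalicular membrane. Abcg8, a subunit of the sterol transporter, read 2650.2, 2331 and 2217 in the low and 1910.0, 1889 and 1708 in the high dose-rate mice (log2 difference -0.38 ± 0.13), Abcb4, the phospholipid exporter, differed by -0.31 ± 0.11 and Abcb11, the bile salt export pump, by -0.40 ± 0.15. None of their high dose-rate mice lay inside the low dose-rate range. The same held for Abcg5, the partner of Abcg8 (-0.25 ± 0.22, unadjusted p 0.273), whereas the exporter Abcc2 differed by 0.06 ± 0.12. In all, 4 of the 22 genes lay wholly lower, where 7.79% of all genes did. Abcg8 was lower at 485 days too, by -0.52 ± 0.13 (unadjusted p 0.001). Among the synthesis enzymes, Cyp8b1, the sterol hydroxylase that sets cholic acid, read 5923, 4087 and 11776 against 15215, 10341 and 11789.5 (0.90 ± 0.35), and Cyp7a1, the rate-limiting enzyme of bile acid synthesis, read 379.7, 609 and 1780.1 against 2306, 864 and 2089 (1.10 ± 0.45). The groups of both overlapped, as did those of the uptake carrier Slco1a4 (1.26 ± 0.45). In each of these 3, low dose-rate mouse 3 lay above the other low dose-rate mice. The other 2 higher at that level were the bile salt uptake carrier Slc10a1 (0.29 ± 0.12) and the bile acid receptor Nr1h4 (0.31 ± 0.12). On the higher side, where 7.51% of all genes lay wholly, the groups lay apart in 3 genes. These were Slc10a1 and the synthesis enzymes Hsd3b7 (0.15 ± 0.09) and Akr1d1 (0.28 ± 0.18). Other synthesis enzymes had lower means, such as Cyp7b1 (-0.67 ± 0.42) and Cyp27a1 (-0.07 ± 0.11). Without high dose-rate mouse 1, 0 genes of the list were higher at an unadjusted p under 0.05 and 3 lower, and without low dose-rate mouse 1 or 2 the counts were 1 and 1.

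Several metabolic genes with clear separation lay outside these groups. Igfbp1, a secreted binder of insulin-like growth factors that insulin represses, read 1630.0, 3226 and 1756 in the low and 5944, 5062 and 5091 in the high dose-rate mice (log2 difference 1.35 ± 0.35, unadjusted p 0.00124), with 1906 in the pool. Ppp1r3c, a glycogen-targeting phosphatase subunit, read 4882, 4375 and 5896 against 6767, 7828 and 7516 (0.55 ± 0.19, unadjusted p 0.0107). It was the 1 gene past the adjusted threshold between high and low dose-rate at 485 days (1.25 ± 0.19, adjusted p 0.0493), which was 0.00892% of genes, and where 963 genes, 8.59%, had an unadjusted p under 0.05. Pck1, a key enzyme of gluconeogenesis, differed by -0.51 ± 0.20, but its groups overlapped. Of 28 genes of insulin, glycogen and gluconeogenesis 4 were higher and 2 lower at an unadjusted p under 0.05, where 4.32% and 4.17% of all genes were. These counts were 2 and 0 without high dose-rate mouse 1, and 2 and 1 without low dose-rate mouse 2. Glul, glutamine synthetase of pericentral hepatocytes, read 6277, 6620.0 and 7846 against 13234, 9044 and 14175 (0.79 ± 0.22, unadjusted p 0.00207). Bhmt, a homocysteine methyltransferase (0.27 ± 0.09), and Ass1, the urea cycle enzyme argininosuccinate synthase (0.93 ± 0.32), were the other 2 of 21 urea cycle and amino acid genes at an unadjusted p under 0.05. All 3 were higher, where 4.32% of all genes were, and the count was 5 without low dose-rate mouse 3 or high dose-rate mouse 2. Cyp26a1, which degrades retinoic acid, read 2950.2, 2607 and 1675 against 5193, 4261 and 6339.9 (1.15 ± 0.35, unadjusted p 0.0044), and with Sult1a1, a sulfotransferase (0.39 ± 0.13), belonged to 47 drug-metabolizing enzymes, of which 6 were higher and 1 lower at an unadjusted p under 0.05, where 4.32% and 4.17% of all genes were. The counts were 12 and 3 without low dose-rate mouse 3 and 11 and 3 without high dose-rate mouse 2, and 4 higher without high dose-rate mouse 1, low dose-rate mouse 1 or low dose-rate mouse 2.

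The remaining lists had few members with small p when all mice were used. Of 67 oxidative phosphorylation genes 34 were higher and 33 lower, 0 had an unadjusted p under 0.05, and the median was 0.00. The split was 17 higher and 50 lower with each array centred on its median, 18 and 49 without high dose-rate mouse 1, and 42 and 25 without low dose-rate mouse 3. The smallest p there belonged to the respiratory subunits Cox7c, Cox6a1 and Ndufc1 (0.106, 0.111 and 0.116). Of 19 clock genes 10 were higher and 9 lower. Usp2, a rhythmic deubiquitinase, read 343, 362 and 427 against 100.1, 302 and 179.5 (-1.06 ± 0.35), below 924 in the pool, the transcription factor Hlf differed by 0.36 ± 0.16, and the repressor Nfil3 by 0.44 ± 0.23. The sources used here do not give the time of day of collection. Of 20 glucocorticoid-induced genes 9 were higher and 11 lower, and Zbtb16, Angptl4 and Cdkn1a led. At an unadjusted p under 0.05, 3 were higher and 3 lower, where 4.32% and 4.17% of all genes were. Of 39 genes of fatty acid oxidation and PPAR alpha 0 were higher and 2 lower at that level, namely Angptl4 and the hepatic transcription factor Creb3l3 (-0.20 ± 0.09), with Pdk4, a brake on pyruvate oxidation, next (0.74 ± 0.37, unadjusted p 0.0639). Without low dose-rate mouse 3 the counts were 9 higher and 2 lower and the list's median was 0.14, against 0.03 with it. Of 21 genes of PPAR gamma and lipid droplets 1 had such a p, Abhd5, a coactivator of fat hydrolysis (-0.36 ± 0.15), ahead of the lipase Lpl (0.41 ± 0.29) and the fatty acid binder Fabp4 (0.38 ± 0.26). Of these 21, 14 were higher on average with a median of 0.06, and without low dose-rate mouse 3 there were 18, 6 of them at an unadjusted p under 0.05, with a median of 0.25. Without low dose-rate mouse 1 there were 8, and the median was -0.07. Of 26 acute phase and plasma protein genes 10 were higher on average and 16 lower. At an unadjusted p under 0.05, 2 were higher and 0 lower (0 and 1 without high dose-rate mouse 1 or low dose-rate mouse 1), the interleukin 1 receptor antagonist Il1rn (0.86 ± 0.35) and Hamp2, a gene nearly identical to hepcidin (1.20 ± 0.55), and Lbp, which binds lipopolysaccharide, differed by -0.45 ± 0.24. Hamp2 was -0.41 when no filter on low signal was used. Of 15 genes of MHC class I and peptide loading 13 were higher on average (9 with each array centred on its median) with a median of 0.09, but 0 had an unadjusted p under 0.05. Tap1, a peptide transporter, differed by 0.44 ± 0.21 (unadjusted p 0.0502), the nonclassical H2-M3 by 0.31 ± 0.15 and the immunoproteasome subunit Psmb9 by 0.30 ± 0.20.

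Set against the same contrast at 485 days, the 401-day differences recurred in part. Of the 952 genes at an unadjusted p under 0.05 at 401 days, 598 (62.8%) had the same sign at 485 days, where 54.4% of all 11216 genes did. At 485 days 4.85% of genes were higher and 3.74% lower at an unadjusted p under 0.05. Both experiments gave an unadjusted p under 0.05 and the same sign in 98 genes, 10.3% of the 401-day and 10.2% of the 485-day genes at that level. Of the 842 genes whose high dose-rate mice all lay higher at 401 days, 69 (8.19%) did so at 485 days, which is 10.6% of the 650 there (5.8% of genes), and of the 874 that lay lower 70 (8.01%) did, 10.97% of 638 (5.69% of genes). The difference between the experiments was tested as an interaction, and 0 of 11216 genes passed (limma), with 777 (6.93%) at an unadjusted p under 0.05. The smallest interaction p was that of Zcchc2, which read 1136, 1178 and 838 in the low and 506, 597 and 615 in the high dose-rate mice at 401 days, a log2 difference of -0.86 ± 0.20, and 0.79 ± 0.20 at 485 days (interaction adjusted p 0.14). H2-Eb1, Gnat1, Lrat and Txndc11 followed. Gnat1, the rod transducin gene, differed by 1.47 ± 0.47 and -1.77 ± 0.47 from low signals (46.0, 26.6 and 84.1 in the low dose-rate mice at 401 days). Txndc11, a thioredoxin-domain protein of the ER, differed by -0.64 ± 0.19 and 0.65 ± 0.19, and its 1 other probe set had the opposite sign. Exposure time, dose-rate and experiment changed together between these contrasts and cannot be told apart.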

How the data were processed

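Liver RNA was measured on 20 Affymetrix arrays. The deposited values are signal intensity that the authors computed with MAS5, per the submitters' processing notes, which give no version. The table held 45101 probe sets, of which 34945 had 1 gene symbol in the platform annotation, 932 several and 9160 none, and 64 were array controls. The authors' scaling was kept, and log2 values were taken after adding 7.12, the 10th percentile of the signals. Probe sets whose mean signal fell under the overall median were dropped, leaving 22519. Each of 11216 genes was represented by the probe set with the highest mean, with names ending in _s_at or _x_at used only where no other was kept.

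A linear model with 8 groups (dose-rate and experiment) was fitted to all 20 arrays with limma 3.58.1 in R 4.3.3 (lmFit, eBayes with a variance trend, 12 residual degrees of freedom), with two-sided tests and Benjamini-Hochberg adjustment over all genes at 0.05. All groups share 1 estimate of the spread. Each irradiated array was 1 mouse, so p-values measure the spread between mice, and the number of arrays limits the precision. The fit was tested on simulated data.

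The 25 pathway and 12 marker lists (776 of 874 symbols on the array) and the comparison were chosen with earlier results of these data known. Lists are described by counts and medians, with no test. Genes were named by rule: the 10 with the smallest p in each direction whose groups did not overlap, the 5 with the widest gap among those 1.5-fold apart in each direction, the 5 smallest interaction p, and the 3 smallest p of each pathway list. Marker lists are given mostly as sums. Other genes were named after their values were seen: Ern1, Eif2ak3, Xbp1, Chac1, Hyou1, Atf3, Hspa1a, Hmgcs1, Fdps, Sqle, Dhcr7, Srebf2, Idi1, Fasn, Irgm1, Irgm2, Cd74, H2-Aa, Egfr, Abcb11, Cyp8b1, Cyp7a1, Abcg5, Abcc2, Slc10a1, Nr1h4, Hsd3b7, Akr1d1, Cyp7b1, Cyp27a1, Hbb-b2, Klf1, Car3 and Cela1. Figures were drawn with matplotlib 3.10.9. Promoter windows came from RefSeq by gene symbol, for the 3 genes printed.

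The main fit did not pair mice by replicate number. Residuals of same-numbered high and low dose-rate mice correlated by -0.03, 0.25 and 0.02. So few correlations cannot show whether the numbers pair the mice, and a fit with the number as a block is given below. Alternatives covered the pseudocount, the filter, scaling, the choice of probe set, the arrays in the fit, the variance trend, a replicate block and leaving out each mouse.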

Additional observations from a re-analysis of the deposited data

Results flagged for a closer look

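For 3 lists every high dose-rate mouse at 401 days lay on one side of the mean of its low dose-rate group and every high dose-rate mouse at 485 days on the other, by the list's median. These differences between the experiments were not tested. The MHC class II list had a median log2 difference of 0.62 at 401 days and -0.36 at 485 days, the 4 neutrophil markers kept by the signal filter 0.34 and -0.61, and the 12 hepatocyte markers -0.056 and 0.26. On the neutrophil list at 485 days the groups overlapped (low 1.32, -0.72 and 0.07, high -0.76, -0.69 and -0.004). So did those of the MHC class II list at 485 days (low 0.01, -0.44 and 0.40, high -0.45, -0.52 and -0.26). On the hepatocyte list they overlapped at 401 days (low -0.03, 0.03 and -0.04, high -0.01, -0.05 and -0.12). Its median there was 0.01 with quantile normalization, so its sign did not hold.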

How the results depend on the processing

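At 401 days, 0 genes passed the adjusted threshold of limma with either other pseudocount, with no filter, with a filter keeping 30% of probe sets, with quantile normalization, with the probe set of highest mean, with the 6 arrays alone and without a variance trend. The count was 4 with median-centred arrays (Stap1 higher, Banp, Zbtb16 and Tppp lower) and 1 with the 10 arrays of the experiment (Zbtb16). With the replicate number as a block it was 2 (Stap1 and Pde4b), where 2 of 3 high dose-rate mice correlated best with their own number. Leaving out single mice gave 0 to 37 genes. At 485 days the count of 1 became 0 with a pseudocount of 1, median-centred arrays, quantile normalization, the probe set of highest mean, the 10 arrays of that experiment, the 6 arrays alone and no variance trend, 0 to 8 without single mice, and 1 with the replicate block, a different gene (Castor2). For the difference between experiments the count of 0 was 1 with only the 12 arrays concerned and 0 to 2 without single mice. The 28 genes at least 1.5-fold apart became 181 with no filter and 12 with 30% of probe sets. Signs turned for Cox7c (0.53) and Hamp2 (-0.41) with no filter and for Smo (-0.15) with the probe set of highest mean, and Srebf2 ranged from -0.12 to 0.39 and Hbb-b2 from -0.31 to 0.55 without single mice. No cause of these differences was tested. Medians of gene lists moved beyond the spread between mice under 42 of 627 combinations of list and setting. Dim probe sets limit precision: Stap1, Gnat1 and Ccdc151 had low dose-rate signals near or below array medians. Cabin1 had high dose-rate signals below them.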

Other observations

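The 37 genes past the adjusted threshold when low dose-rate mouse 3 was left out, as each mouse was in turn, include 27 outside the 20 genes first described, chosen for mention here after their values were seen. E2f5, a transcription factor of the cell cycle, read 42.2, 72.3 and 776 in the low and 949, 512 and 626 in the high dose-rate mice, with 313 in the pool. Mbd1, which binds methylated DNA, read 5394, 6940.4 and 1463 against 1185, 2305 and 1593, with 3057 in the pool. In both genes low dose-rate mouse 3 lay with the high dose-rate mice and the pool lay between.

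The same arrangement held for Ahr, the receptor for dioxins and related ligands (677, 816 and 1868 against 1847, 1543 and 2059), and for Alas1, the rate-limiting enzyme of heme synthesis in liver (18014, 22111 and 5471 against 4804, 5058 and 8354). Foxa1, a pioneer transcription factor of hepatocytes, read 3145, 3294 and 987 against 739, 1022 and 1202. Without low dose-rate mouse 3 the log2 differences were 3.44 for E2f5, -1.90 for Mbd1, 1.27 for Ahr, -1.76 for Alas1 and -1.73 for Foxa1, with limma's adjusted p of 0.0117, 0.0117, 0.0208, 0.0385 and 0.0385. With all 3 low dose-rate mice they were 2.23 ± 0.71, -1.21 ± 0.40, 0.83 ± 0.28, -1.14 ± 0.42 and -1.16 ± 0.40, and none passed (adjusted p 0.37, 0.38, 0.38, 0.45 and 0.41). The genes were taken from the list made by leaving out low dose-rate mouse 3. Their small p without it, and its place among the high dose-rate mice, depend on that choice and are not separate support. At 485 days, in other mice, Alas1 differed by -1.24 (unadjusted p 0.009), Foxa1 by -0.89 (0.041), Mbd1 by -0.69, Ahr by 0.36 and E2f5 by -0.09.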
